A study of Homo sapiens with 12 samples.

Results

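The 8 genes described here encode sensors of foreign or misplaced nucleic acids and the adaptors those sensors signal through, and they were chosen by name from the 35579 genes that the transcripts of the libraries could be assigned to. They are the RNA helicases DDX58 (RIG-I, now RIGI), IFIH1 (MDA5) and DHX58 (LGP2), the adaptors MAVS and TMEM173 (STING, now STING1), the endosomal receptor TLR3, and the sensors ZBP1 and IFI16. RNA was measured in WM-266-4 cells, a human melanoma line in which TYRO3, a receptor tyrosine kinase, had been stably knocked down with a lentiviral shRNA, so that every group, the control included, carries the knock-down. Onto this background the cells were transfected with a plasmid for GFP (control), wild-type TYRO3 (WT), TYRO3 that resists cleavage by γ-secretase (ΔGS) or TYRO3 that resists cleavage by ADAM proteases (ΔADAM), and were kept without serum overnight. The labels name the control plasmid GFP, whereas a figure legend of the study describes it as empty. Each of 3 experiments gave 1 polyA RNA library per group, 12 libraries in all, and nothing in the labels says whether the experiments were separate cultures of the line, so that the p-values measure the spread between these libraries. All results come from 1 cell line, and the constructs were delivered by transient transfection.

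RIG-I and MDA5 are cytosolic helicases that bind viral or other double-stranded RNA and pass the signal to MAVS on mitochondria, which leads to type I interferon. LGP2 is a related helicase without the signalling domains and modulates both. TLR3 recognizes double-stranded RNA inside endosomes, IFI16 binds DNA, STING relays DNA sensing from the second messenger cGAMP, and ZBP1 binds nucleic acids in the Z conformation. Many of these genes are themselves induced by interferon through a response element in their promoters, and melanoma cells can keep or lose parts of this system. TLR3 is not cytosolic, and MAVS and STING are adaptors at organelle membranes, so the 8 genes are a functional group and not a single compartment.

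Promoters were searched because 4 of the genes, DDX58, IFIH1, DHX58 and TLR3, moved together. The interferon-stimulated response element is also a known feature of such genes. No promoter was available for DHX58, TMEM173 or ZBP1, so DHX58 was not examined. IFI16 and MAVS, which are not among these 4 genes, were searched as well. The RefSeq table (GRCh38.p14) held a promoter for 5 of the 8 members, each 300 bases long, from 250 bases before to 50 bases after the annotated start. Capitals mark the core of the response element, a pair of GAAA with 2 bases of any kind between them, read on either strand, or the narrower form GAAANGAAA, with 1 base between them, which was added after the promoters had been seen. The sequences are written 5′ to 3′ along the gene.
DDX58, minus strand, chr9:32526147-32526446: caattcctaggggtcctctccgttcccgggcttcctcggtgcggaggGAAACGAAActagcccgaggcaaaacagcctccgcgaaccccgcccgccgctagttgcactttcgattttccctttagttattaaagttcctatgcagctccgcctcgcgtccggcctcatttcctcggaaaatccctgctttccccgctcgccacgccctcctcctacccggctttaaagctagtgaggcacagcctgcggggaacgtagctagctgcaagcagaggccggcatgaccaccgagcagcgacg
IFIH1, minus strand, chr2:162318635-162318934: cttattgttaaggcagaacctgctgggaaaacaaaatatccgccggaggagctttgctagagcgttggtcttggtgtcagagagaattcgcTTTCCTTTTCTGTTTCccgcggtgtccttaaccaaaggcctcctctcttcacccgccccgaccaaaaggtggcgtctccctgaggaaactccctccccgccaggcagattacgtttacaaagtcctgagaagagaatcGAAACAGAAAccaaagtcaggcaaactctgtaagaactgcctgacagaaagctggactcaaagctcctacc
TLR3, plus strand, chr4:186068906-186069205: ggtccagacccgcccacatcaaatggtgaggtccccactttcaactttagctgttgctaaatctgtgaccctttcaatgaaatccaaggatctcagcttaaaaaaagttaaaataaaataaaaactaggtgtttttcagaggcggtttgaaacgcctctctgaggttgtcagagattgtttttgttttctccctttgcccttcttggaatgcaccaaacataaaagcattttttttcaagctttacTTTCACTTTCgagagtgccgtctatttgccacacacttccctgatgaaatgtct
IFI16, plus strand, the second of its start sites, chr1:159009657-159009956: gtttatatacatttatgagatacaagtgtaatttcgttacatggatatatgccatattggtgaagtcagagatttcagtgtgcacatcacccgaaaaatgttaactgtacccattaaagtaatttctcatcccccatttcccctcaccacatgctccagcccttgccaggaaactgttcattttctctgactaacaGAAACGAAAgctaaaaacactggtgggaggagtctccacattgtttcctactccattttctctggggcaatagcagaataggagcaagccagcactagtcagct
MAVS, plus strand, chr20:3846584-3846883: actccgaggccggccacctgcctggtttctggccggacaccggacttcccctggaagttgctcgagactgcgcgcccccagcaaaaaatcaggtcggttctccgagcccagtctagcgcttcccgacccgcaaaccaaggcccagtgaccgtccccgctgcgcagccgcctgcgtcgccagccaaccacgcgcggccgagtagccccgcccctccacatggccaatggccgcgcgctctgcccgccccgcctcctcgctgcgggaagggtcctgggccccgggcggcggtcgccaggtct

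The core was found 3 times in the IFIH1 promoter. A pair of overlapping matches on the opposite strand spans 159 to 144 bases before the start, and GAAACAGAAA lies on the strand of the gene 21 to 12 bases before it. In the TLR3 promoter the core GAAAGTGAAA was on the opposite strand and covered the start itself, from 4 bases before it to base 6. The narrower form GAAACGAAA occurred in the DDX58 promoter 203 to 195 bases before the start and in the IFI16 promoter shown 54 to 46 bases before it. The first of the IFI16 start sites and the MAVS promoter held neither form. The core itself was thus found only in the IFIH1 and TLR3 promoters, and DHX58 could not be examined. Of all 35116 promoters of this length in the table, 3.57% held the core, 3.12% the narrower form and 6.40% either of them. These are letter matches in a short window and were not measured here as bound sites.

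TYRO3 itself was higher in all 9 libraries that received a TYRO3 construct than in the control library of the same experiment, by 20.9-fold to 69.5-fold. Its level was higher with ΔGS than with ΔADAM in each experiment, with a log2 difference of 0.29 (95% interval -0.20 to 0.78). Equal levels of the constructs are thus not shown. Of the 8 sensor genes, DDX58, IFIH1, DHX58 and TLR3 were called higher than control with each of the 3 constructs, and none was called lower. To be called, a gene had to differ by more than 1.5-fold with an adjusted p no higher than 0.05 in edgeR's quasi-likelihood test across 15098 genes, with Benjamini-Hochberg adjustment and a term for each experiment. ZBP1 was too low to be tested, which leaves 4 of 7 tested members called. Of all genes tested, 1.66% were called higher with WT, 2.81% with ΔGS and 3.15% with ΔADAM. The median log2 fold change of the 7 members was 0.68, 0.73 and 0.78 with WT, ΔGS and ΔADAM, against medians of 0.00, 0.01 and 0.00 over all tested genes. The members were chosen with earlier results of these data known, so their contrast with all genes is no independent evidence. The 3 comparisons share the control libraries, so they are not independent of each other. RNA of whole cultures cannot tell more RNA per cell from more cells that express a gene.

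DDX58 encodes RIG-I, which recognizes short double-stranded RNA with a 5′ triphosphate. Its level in CPM (read counts scaled to a common library size by TMM) was 43.7, 83.5 and 48.0 in the control libraries of experiments 1, 2 and 3. It was 98.1, 208 and 90.5 with WT, 116, 206 and 83.6 with ΔGS, and 107, 238 and 81.2 with ΔADAM. The libraries of experiment 2 were the highest in every group, and the control library of experiment 2 exceeded the ΔADAM library of experiment 3, so that ΔADAM and control overlap. WT and ΔGS do not overlap with control, although for ΔGS the nearest libraries were 83.6 and 83.5 CPM. Groups with no overlap in this direction made up 10.0% of all tested genes for WT, 11.1% for ΔGS and 12% for ΔADAM. Within each experiment, DDX58 was higher than in the control library by 1.69-fold to 2.85-fold. The fitted log2 fold changes were 1.12 ± 0.13 (SE, n = 3 libraries per group; edgeR adjusted p = 0.003), 1.16 ± 0.13 (adjusted p = 0.00162) and 1.17 ± 0.13 (adjusted p = 0.00143) for WT, ΔGS and ΔADAM.

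IFIH1 encodes MDA5, which recognizes long double-stranded RNA. Control libraries held 47.3, 56.8 and 39.4 CPM in experiments 1, 2 and 3. The level was 69.7, 113 and 56.2 CPM with WT, 72.3, 114 and 58.2 with ΔGS, and 74.7, 135 and 55.5 with ΔADAM. Here ΔGS does not overlap with control, while 1 library each of WT and ΔADAM, that of experiment 3, lies just under the control library of experiment 2. The difference within an experiment ran from 1.41-fold to 2.37-fold and was largest in experiment 2 with each construct. The fitted log2 fold changes were 0.70 ± 0.12 with WT (edgeR adjusted p = 0.0159), 0.73 ± 0.12 with ΔGS (adjusted p = 0.00801) and 0.81 ± 0.12 with ΔADAM (adjusted p = 0.00536).

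DHX58 encodes LGP2, and its level per length (TPM) in control was the lowest of the 3 helicases, at 10.5 ± 4.19 (SD, n = 3). The control libraries held 12.9, 15.3 and 7.99 CPM, those with WT 18.6, 27.9 and 11.7, those with ΔGS 20.3, 28.3 and 13.4, and those with ΔADAM 20.5, 33.0 and 10.9. Each construct's library of experiment 3 lies within the range of the controls, so all 3 groups overlap with control, although every one of the 9 libraries exceeds the control of its own experiment, by 1.36-fold to 2.16-fold. The fitted log2 fold changes were 0.68 ± 0.13 (edgeR adjusted p = 0.022), 0.79 ± 0.13 (adjusted p = 0.0076) and 0.78 ± 0.13 (adjusted p = 0.00719) with WT, ΔGS and ΔADAM. The call with WT was lost with counts from length-scaled TPM and with limma on log2 TPM.

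TLR3 showed the highest fold changes of the 8 genes from a low level. Its level was 2.37, 3.67 and 2.22 CPM in the control libraries. It was 9.39, 9.78 and 6.84 CPM with WT, 9.12, 13.5 and 5.64 with ΔGS, and 10.0, 13.9 and 8.17 with ΔADAM. In CPM none of the 9 libraries overlaps with control, and the differences within an experiment ran from 2.54-fold to 4.24-fold. In TPM the ΔGS library of experiment 3, at 1.87, lies under the control library of experiment 2, at 2.49. The fitted log2 fold changes were 1.62 ± 0.17 (edgeR adjusted p = 0.00208), 1.69 ± 0.17 (adjusted p = 0.0013) and 1.91 ± 0.17 (adjusted p = 0.000511) for WT, ΔGS and ΔADAM. The control library of experiment 1, the shallowest of the 12, held 9 counts of TLR3, and without that library TLR3, DDX58, IFIH1 and DHX58 were still called with each construct.

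**Figure D1:**
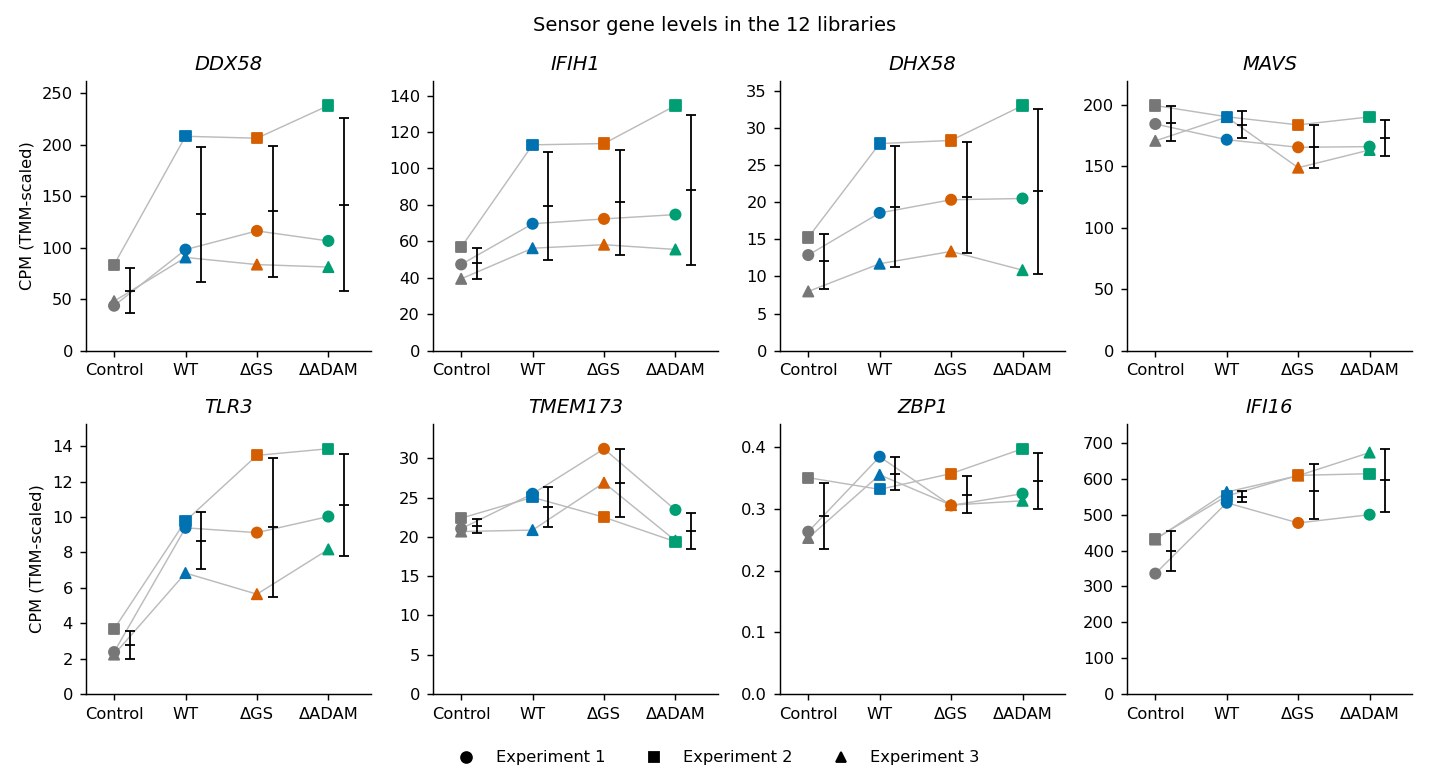
Level of each of the 8 sensor genes in CPM (vertical axis, linear from 0) in the control, WT, ΔGS and ΔADAM libraries, with a marker shape for each experiment, grey lines joining libraries of the same experiment, and black bars for the mean ± SD of 3 libraries. DDX58, IFIH1, DHX58 and TLR3 lie higher with every construct and highest in experiment 2, whereas MAVS stays between 149 and 200 CPM.

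IFI16, a DNA-binding protein of nucleus and cytosol, was the most abundant member per length, at 268 ± 47.5 TPM (SD, n = 3) in control. Control libraries held 336, 433 and 431 CPM, WT libraries 533, 552 and 563, ΔGS libraries 477, 610 and 609, and ΔADAM libraries 500, 614 and 673. Every library with a construct exceeds all control libraries, and the difference within an experiment was 1.28-fold to 1.59-fold. The log2 fold changes of 0.47 ± 0.08 (edgeR adjusted p = 0.0158), 0.50 ± 0.08 (adjusted p = 0.00782) and 0.57 ± 0.08 (adjusted p = 0.00447) passed the p threshold, but the folds of 1.39, 1.41 and 1.49 stayed under 1.5, so IFI16 was not called. With ΔADAM it was called by limma on log2 TPM, with at least 10 counts in every library, with experiments 2 and 3 alone, and in 3 of the 12 fits that left out 1 library.

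MAVS, the adaptor downstream of RIG-I and MDA5, was not called in any comparison. Its level was 185, 200 and 171 CPM in control, 172, 190 and 190 with WT, 166, 184 and 149 with ΔGS, and 166, 190 and 163 with ΔADAM. The groups overlap, and 1 of the 9 libraries exceeded the control of its experiment. The 95% intervals of the log2 fold changes were -0.17 to 0.17 for WT, -0.32 to 0.01 for ΔGS and -0.26 to 0.07 for ΔADAM.

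TMEM173 encodes STING, the adaptor of the cGAS pathway. Control libraries held 21.0, 22.4 and 20.7 CPM, WT libraries 25.5, 25.0 and 20.9, ΔGS libraries 31.2, 22.5 and 26.9, and ΔADAM libraries 23.4, 19.4 and 19.5. The ΔGS libraries all lie above the controls, although in experiment 2 the pair differed by 1.01-fold, and the other constructs overlap with control. The log2 fold changes were 0.12 ± 0.12 (edgeR adjusted p = 0.584) with WT, 0.30 ± 0.11 (adjusted p = 0.131) with ΔGS and -0.07 ± 0.12 (adjusted p = 0.744) with ΔADAM.

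ZBP1, which links Z-form nucleic acids to necroptosis, had 1 to 13.1 estimated counts in a library. The control libraries held 1, 13.1 and 5.03 counts. WT libraries held 7.08, 6.04 and 8.01 counts, ΔGS libraries 7.07, 9.01 and 7.01, and ΔADAM libraries 11.1, 9.0 and 9.01. In CPM the groups overlap, and the exact two-sided permutation test of 3 against 3 libraries gave p = 0.2, 0.4 and 0.3 for WT, ΔGS and ΔADAM, where 0.1 is the smallest p this design allows. This unpaired test cannot reach the threshold whatever the depth. Within experiments the log2 differences from control were 0.55, -0.08 and 0.49 with WT, 0.22, 0.03 and 0.28 with ΔGS, and 0.30, 0.18 and 0.31 with ΔADAM, on the few counts given.

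**Figure D2:**
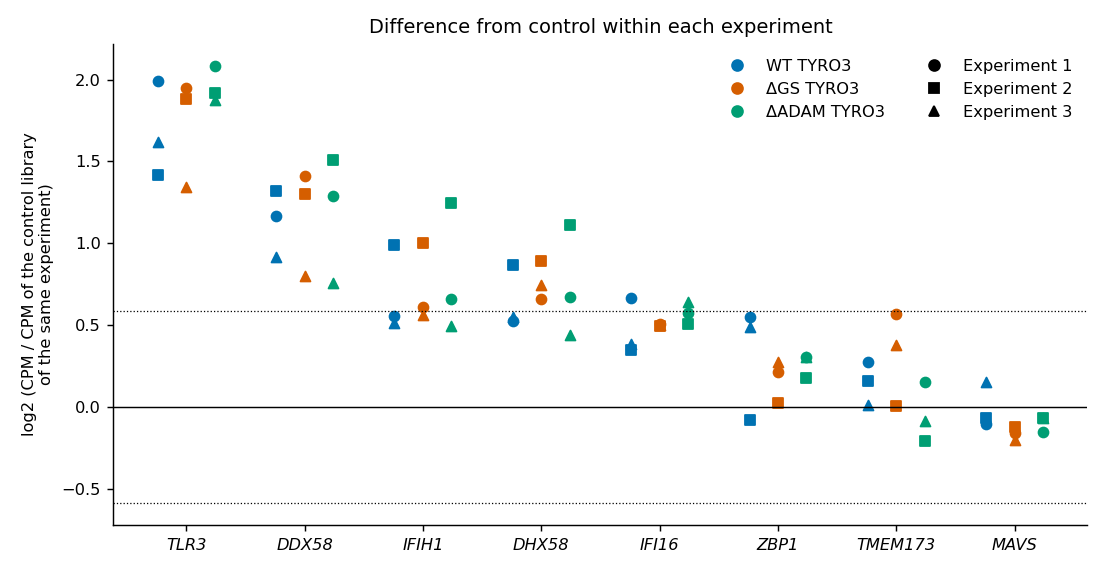
Difference of each TYRO3 library from the control library of the same experiment, as log2 of the ratio of CPM (vertical axis) for each sensor gene, with colours for the constructs and marker shapes for the experiments, and dotted lines at a 1.5-fold difference. All 9 points lie above 0 for TLR3, DDX58, IFIH1, DHX58 and IFI16, against 1 of 9 for MAVS and 7 of 9 for TMEM173.

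Within experiments, 5 of the 8 members (DDX58, IFIH1, DHX58, TLR3 and IFI16) were higher than their own control in all 9 libraries, a pattern shared by 12.7% of tested genes. ZBP1 was higher in 8 of 9, but its control library of experiment 1 held 1 estimated count. The share of tested genes higher in 8 of 9 was not computed, so no weight is put on this count. For DDX58, IFIH1, DHX58, TLR3 and IFI16 the smallest step from control to a construct exceeded the widest ratio between constructs of an experiment. The share of tested genes with this pattern was not computed either, so no weight is put on it. For DDX58 the highest and lowest construct of an experiment differed by 1.19-fold, 1.15-fold and 1.11-fold in experiments 1, 2 and 3. For IFIH1 these ratios were 1.07, 1.19 and 1.05, and for DHX58 1.10, 1.18 and 1.23. They were 1.10, 1.42 and 1.45 for TLR3, and 1.12, 1.11 and 1.20 for IFI16.

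Whether cleavage of TYRO3 matters for these genes is the question of the comparisons between constructs. No member was called between WT and the mean of ΔGS and ΔADAM, nor between ΔGS and ΔADAM, and 0% of the 15098 genes were called in either. At an unadjusted p under 0.05 edgeR had 237 and 217 genes in these comparisons. That is under the share of 0.05 that no difference at all would give. The p-values between constructs therefore ran high, and the absence of calls is weak evidence about cleavage. DESeq2 called 5 genes and 1 gene, none of them a member. The 95% intervals of the 7 tested members for WT against the mean of the variants all lay between log2 differences of -0.46 and 0.27. For ΔGS against ΔADAM, the intervals of the 6 members other than TMEM173 lay between -0.54 and 0.27. TMEM173 was higher with ΔGS than with ΔADAM in each experiment, with a log2 difference of 0.37 (95% interval 0.13 to 0.61), an unadjusted p of 0.0067 in edgeR and an adjusted p of 1.00, and it was not called. These intervals bound the differences but do not show that the constructs act alike.

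**Figure D3:**
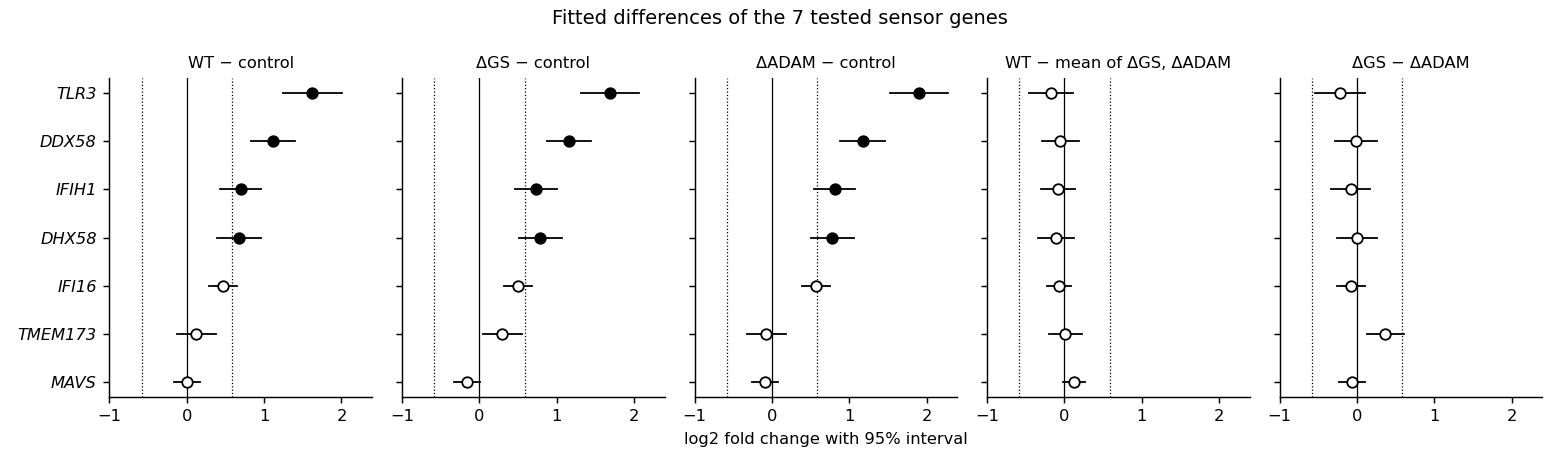
Fitted log2 fold changes (horizontal axis) with 95% intervals for the 7 tested sensor genes in the 5 comparisons, with filled points for called genes and dotted lines at a 1.5-fold change. The 4 called genes stand out against control in the 3 panels on the left, and no point is filled in the comparisons between constructs.

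The level of the called genes also differed between experiments. Averaged over the 4 groups, DDX58 in experiment 2 was 2.0 times its level in experiment 1 and 2.32 times that in experiment 3. The ratios were 1.53 and 1.92 for IFIH1, 1.41 and 2.33 for DHX58, and 1.35 and 1.76 for TLR3, but 1.11 and 1.14 for MAVS, 0.889 and 1.02 for TMEM173, and 1.20 and 0.974 for IFI16. The study used batchelor to correct its values for a batch difference that set experiment 1 apart, and batchelor was not run here. When a single edgeR term for experiment 1 against experiments 2 and 3 was fitted in place of a term for each experiment, a stand-in for that step, no member was called with WT or ΔGS and only TLR3 with ΔADAM, while 0.0397%, 0.278% and 0.616% of all genes were called higher. The log2 fold changes of DDX58 were then 1.17, 1.23 and 1.27, with edgeR adjusted p of 0.248, 0.168 and 0.142. When single libraries were left out, IFIH1 and DHX58 lost their call with WT without the WT library of experiment 1, the WT library of experiment 2 or the control library of experiment 2, which left 2 members called, and IFIH1 lost it with ΔGS without the control library of experiment 2, which left 3. DDX58 and TLR3 kept their calls in all 12 of these fits.

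Per length of transcript, in TPM, which corrects for length and library size, the order in the control libraries was IFI16 (268 ± 47.5, SD, n = 3), IFIH1 (23.9 ± 5.39), MAVS (22.9 ± 3.31), DDX58 (19.3 ± 8.67), TMEM173 (17.6 ± 1.65), DHX58 (10.5 ± 4.19), TLR3 (1.86 ± 0.552) and ZBP1 (1.13 ± 0.610). IFI16 stood clear of the rest, and the neighbours from IFIH1 to TMEM173 overlapped between libraries, as did TLR3 and ZBP1. With the constructs DDX58 reached 46.4 ± 23.7 (WT), 45.8 ± 24.4 (ΔGS) and 49.8 ± 29.4 TPM (ΔADAM), whose means are above that of MAVS at 24.6 ± 1.61, 21.3 ± 3.79 and 23.2 ± 1.90 TPM. IFIH1 had 42.8 ± 16.8, 43.7 ± 17.9 and 48.4 ± 22.4 TPM. The libraries of experiment 2 account for the highest value in each of these means.

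The gene totals are sums over several annotated transcripts. DDX58-202, a protein-coding transcript, held 84.8% ± 9.19 (SD, n = 3) of the DDX58 TPM in control, 88.8% ± 1.73 with WT, 94.3% ± 3.67 with ΔGS and 87.6% ± 1.20 with ΔADAM, and MAVS-202 held 94.7% ± 2.37, 94.8% ± 0.876, 94.0% ± 2.79 and 94.1% ± 3.74 of MAVS. IFI16-205 held 52.3% ± 4.48, 54.7% ± 5.64, 50.4% ± 7.99 and 52.7% ± 3.35 of IFI16. For these genes 1 transcript led in all groups.

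IFIH1 was divided differently from library to library. The transcript with the highest mean share, IFIH1-206, is annotated as a processed transcript without a coding sequence and held 31.7% ± 2.88, 29.1% ± 3.46, 45.1% ± 14.1 and 40.9% ± 3.25 of the IFIH1 TPM in control, WT, ΔGS and ΔADAM. IFIH1-201, protein coding, was estimated at 0.0956, 15 and 7.06 TPM in the control libraries and IFIH1-207, also protein coding, at 9.22, 0.0659 and 1.09e-08 TPM. With WT the values were 0.0563, 9.43 and 8.78 TPM for IFIH1-201 and 21.9, 19.4 and 7.30 TPM for IFIH1-207. Libraries of 1 group thus assigned reads now to the one coding transcript and now to the other, so neither of these is compared between groups, and the sum per gene is the measure used.

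TLR3-202 held 44.8% ± 25.7 of the TLR3 TPM in control and 49.1% ± 10.9, 37.7% ± 3.04 and 41.3% ± 4.67 with WT, ΔGS and ΔADAM. TLR3-205 was at 0 TPM in the ΔGS library of experiment 3, against 3.05 and 3.28 TPM in the other ΔGS libraries. In that library the TLR3 sum was 1.87 TPM against 1.45 TPM in its control, whereas the CPM values were 5.64 against 2.22, so the size of the TLR3 difference there depends on the scale.

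Tested 1 transcript at a time across 69182 transcripts, 0 of the 36 tested transcripts of the members were called with any construct, where 0.00867%, 0.00867% and 0.00578% of all transcripts were called with WT, ΔGS and ΔADAM. At an unadjusted p under 0.05 in edgeR there were 6, 7 and 10 of the 36 with WT, ΔGS and ΔADAM. Over all 69182 transcripts there were 4021, 5173 and 4751. DDX58-202 had log2 fold changes of 1.22, 1.36 and 1.28, with edgeR adjusted p of 0.209, 0.139 and 0.138.

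**Figure D4:**
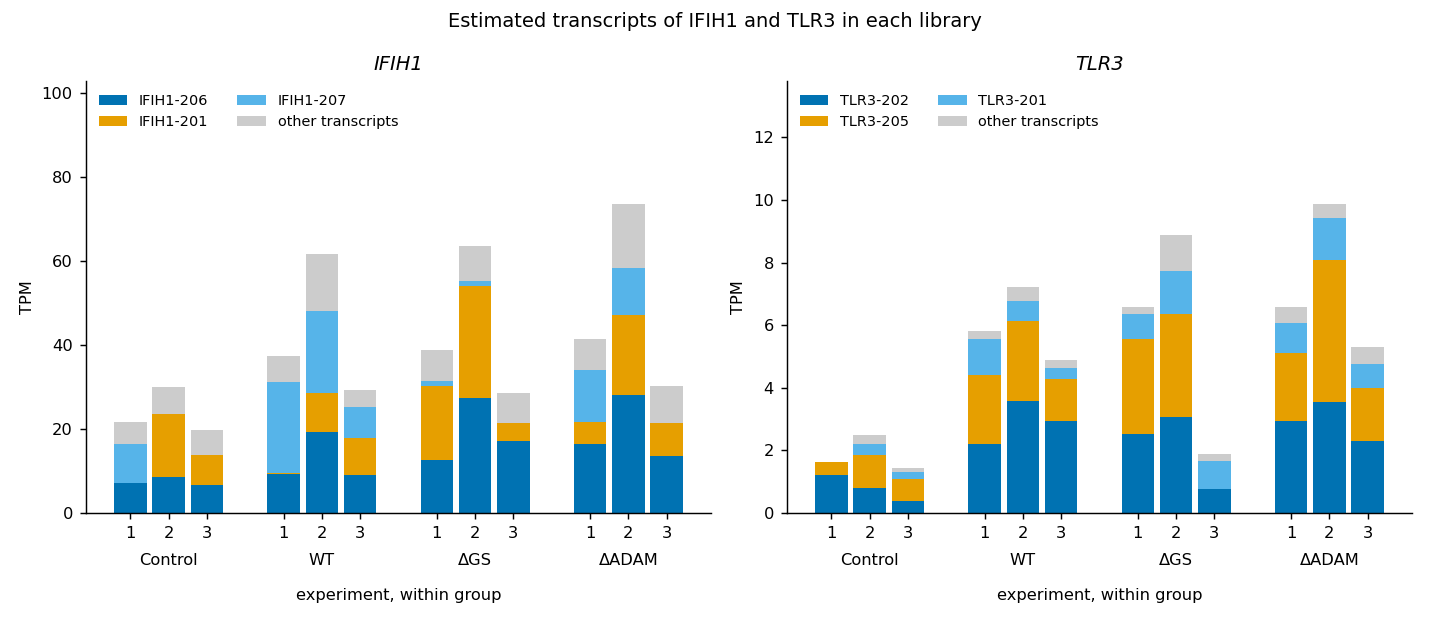
Estimated TPM (vertical axes, linear from 0) of the transcripts of IFIH1 and TLR3 that hold at least 10% of the gene's TPM, stacked by library, with the remaining transcripts in grey. IFIH1-201 and IFIH1-207 change places between libraries of the same group, and TLR3-205 is missing from the ΔGS library of experiment 3.

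The genes whose pattern was most like that of each called member were found by the root mean square difference in log2 CPM, centred within each experiment, over the 12 libraries. Among the nearest to DDX58 were SP100 (0.0851) and TRIM14 (0.11). IFIH1 had DHX58 (0.0601), PLSCR1 (0.0617) and STAT2 (0.0668) nearest, and DHX58 had PLSCR1 (0.0483), IFIH1 (0.0601) and STAT2 (0.0665). The nearest to TLR3 were APOL6 (0.0902), CTH (0.169) and SAMD9 (0.183), so the distances for TLR3 were wider after its first neighbour. These are descriptions over libraries that share experiments and controls.

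Downstream of the sensors, 0 of 16 adaptors and kinases were called with any construct. Their median log2 fold changes were 0.05, 0.08 and 0.08 with WT, ΔGS and ΔADAM. CHUK, a kinase of NF-κB signalling, had log2 fold changes of -0.03, -0.13 and -0.05, and TICAM1, the adaptor of TLR3, 0.34, 0.38 and 0.26 (edgeR adjusted p = 0.112, 0.0593 and 0.156). TICAM1 was named after its values were seen. Among 17 regulators of RIG-I, MDA5 and MAVS, 0 were called with WT or ΔGS and 2 were higher with ΔADAM, namely TRIM25, a ubiquitin ligase of RIG-I (log2 fold change 0.61, edgeR adjusted p = 0.00539), and ZC3HAV1, a binder of viral RNA (0.59, adjusted p = 0.0458). With WT and ΔGS, TRIM25 had 0.58 (edgeR adjusted p = 0.01) and 0.54 (adjusted p = 0.00834), just under the fold threshold. ZC3HAV1 had 0.55 (edgeR adjusted p = 0.0896) and 0.44 (adjusted p = 0.117) with them. A difference between constructs is thus not shown for either gene.

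EIF2AK2, which encodes the RNA-activated kinase PKR, was the one gene called among 8 tested other RNA sensors and editing genes, with log2 fold changes of 0.87, 0.81 and 0.89 (edgeR adjusted p = 0.0142, 0.0128 and 0.00774). Its levels were 98.4, 185 and 133 CPM in control and 220, 347 and 209 CPM with WT. Among 18 tested genes of DNA sensing and removal, SAMHD1, which degrades nucleotides, was higher with each construct (1.24, 1.20 and 1.30, edgeR adjusted p = 0.0244, 0.0176 and 0.012). AIM2, a DNA sensor of the inflammasome, was higher with ΔADAM (2.05, edgeR adjusted p = 0.0442) from a level under 1 TPM in all libraries. It was at 0.263, 0.108 and 0.0506 CPM in control and 0.295, 0.486 and 0.452 CPM with ΔADAM. This gene passed the filter on low counts only through ΔGS and ΔADAM libraries, so its call is no independent evidence. AIM2 had 1.31 and 1.83 with WT and ΔGS (edgeR adjusted p = 0.261 and 0.0738), and ΔGS and ΔADAM differed by -0.22 (adjusted p = 1.00). Over the 12 fits with 1 library left out, EIF2AK2 was called in 10, 11 and 12 with WT, ΔGS and ΔADAM, SAMHD1 in 8, 8 and 11, and AIM2 with ΔADAM in 2. Without the control library of experiment 1, SAMHD1 was called with ΔADAM only. Of the 3 tested partners of ZBP1 in necroptosis, MLKL, the executioner, was higher with ΔADAM (0.67, adjusted p = 0.0324) and had 0.59 and 0.55 with WT and ΔGS (adjusted p = 0.078 and 0.0677), while RIPK3 was at 0 in all libraries. The MLKL call held in 6 of the 12 fits, and that of ZC3HAV1 in 2. With the single term for experiment 1 against 2 and 3, TRIM25 with ΔADAM was the only call left among the adaptors, regulators, other sensors, DNA sensing genes and partners of ZBP1.

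Interferon transcripts themselves were near the limit of detection. IFNB1, the only 1 of 8 interferon genes that could be tested, was at 0, 0.162 and 0.202 CPM in control, 0.165, 0.884 and 0.222 with WT, 0.262, 0.794 and 0.306 with ΔGS, and 0.118, 0.574 and 0.0696 with ΔADAM. The count of 0 in the control library of experiment 1 allows up to 0.789 CPM (3 counts, counting error only), which is above most of these values. Its log2 fold changes were 1.59, 1.78 and 0.83 (edgeR adjusted p = 0.179, 0.0956 and 0.457) and were not called. IFNB1 passed the filter on low counts only through construct libraries of experiment 2, so the direction of these fold changes is no independent evidence. IFNK, IFNA1 and IFNA2 were at 0 in all 12 libraries, which allows up to 0.0809 CPM in the deepest of them. In contrast, all 12 genes of the interferon response reference list, among them MX1 and IFIT1, were called higher with each construct, with median log2 fold changes of 1.31, 1.52 and 1.49. That list was set with earlier results of these libraries known and is no independent evidence of direction. Without the control library of experiment 1, 7, 11 and 11 of the 12 were called. With WT the count was 5 without the WT library of experiment 1 or 2 and 6 without the control library of experiment 2, and with single libraries left out it stayed at 10 or more with ΔGS and 9 or more with ΔADAM. With the single term for experiment 1 against 2 and 3, 0, 1 and 2 were called.

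The libraries held 4008293 to 38184838 estimated counts with a median of 23302002, and the shallowest, the control of experiment 1, was below the next, at 18365999. All 8 melanocyte lineage markers were measured in every group, at summed levels of 1643 to 1989 TPM in control, 1068 to 1987 with WT, 1096 to 1605 with ΔGS and 1103 to 1659 with ΔADAM. MITF and DCT, 2 of the 8, were called lower with ΔGS (log2 fold changes of -1.01 and -1.24) and ΔADAM (-1.06 and -1.24), though not without the control library of experiment 1. Of all 15098 tested genes, 284 and 309 were called lower with ΔGS and ΔADAM. With WT, MITF and DCT had -0.81 and -1.02 (edgeR adjusted p = 0.0671 and 0.0844), so a difference between constructs is not shown. The median of the 8 markers was -0.48, -0.38 and -0.48 with WT, ΔGS and ΔADAM. TYRP1 went the other way with WT (0.66, edgeR adjusted p = 0.249). The part of these markers in the sensor results was not tested. Of 6 leukocyte markers, PTPRC, CD3E, CD79A and ITGAM were under 1 TPM in all libraries, and the summed level was 1.49 to 3.74 TPM in control, 1.40 to 2.51 with WT, 1.93 to 3.82 with ΔGS and 2.15 to 2.89 with ΔADAM. ITGAM was called higher with ΔGS (2.23) at 0.698, 0.595 and 0.175 CPM against 0, 0.135 and 0.0506 in control. ITGAM passed the filter on low counts only through ΔGS and ΔADAM libraries, so its call is no independent evidence. This call held in 4 of the 12 fits with 1 library left out, and the 0 in control allows up to 0.789 CPM, which is above each ΔGS value. Endothelial markers summed to 0.249 to 1.82 TPM over all groups. Epithelial markers, mostly KRT18, summed to 117 to 155 TPM in control, 142 to 223 with WT, 183 to 199 with ΔGS and 170 to 220 with ΔADAM. KRT18 had log2 fold changes of 0.32, 0.44 and 0.34 (edgeR adjusted p = 0.26, 0.0923 and 0.169), no endothelial or epithelial marker was called, and the part of KRT18-expressing cells in the sensor results was not tested.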

How the data were processed

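Libraries of polyA RNA (TruSeq stranded, paired-end) of 12 samples were trimmed by the authors with PRINSEQ and Trimmomatic 0.33 and quantified with kallisto 0.46.0 against Ensembl 96 (GRCh38). The deposited files give estimated counts and TPM for 188753 transcripts, with no batch correction. Estimated counts were summed per gene through GENCODE 29 (169797 transcripts matched by identifier without version, 18956 not) and rounded, and TPM as deposited was summed the same way.

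Genes were tested with edgeR 4.0.16 in R 4.3.3 (TMM scaling, genes kept by filterByExpr at min.count 10 and min.total.count 15) on all 12 libraries, with group and a term for each experiment. The titles number the experiments. Deviations from the group means correlated at 0.136 to 0.661 in the 18 pairs of libraries of the same experiment and at most 0.0326 in others, so the numbers pair the libraries. Transcripts were tested the same way. The alternatives were no replicate block, size factors of DESeq2 type, DESeq2 1.42.0, other filters, length-scaled TPM, limma 3.58.1 on log2 TPM (pseudocount 1 or 0.1), no fold threshold, experiments 2 and 3 alone, and each library left out in turn.

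Named were the 8 members, TYRO3, the called genes of each list or else its 3 most abundant genes (several left out for length), the 3 nearest genes of each called member, and transcripts with at least 10% of a member's TPM. The members and lists were chosen with earlier results of these data known. 1 gene that the naming rule picks is not reported here. The procedure was tested on simulated data. Tables and exact tests used pandas 2.3.3 and scipy 1.17.1 in Python 3.11.15, and figures used matplotlib 3.10.9.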

Additional observations from a re-analysis of the deposited data

How the results depend on the processing

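Of the log2 fold changes of the 7 tested members over the 5 comparisons, 718 of the values recomputed under the alternatives kept their direction and their side of the threshold, 38 lost the call, 10 gained it and 34 changed sign. No sign changed in a comparison in which the gene was called. The replicate block decided most calls. Without the replicate block, with the term for experiment 1 against 2 and 3, 0, 0 and 1 members were called with WT, ΔGS and ΔADAM in place of 4, 4 and 4, and over all genes 6, 69 and 168 in place of 355, 708 and 784. Without any batch term the members called were 0, 0 and 0, and all genes called were 3, 4 and 5. With experiments 2 and 3 alone 2 members were called with WT and 2 with ΔGS (IFIH1 and DHX58 were lost), and 4 with ΔADAM (DHX58 was lost and IFI16 gained), and 47, 189 and 218 genes. Leaving out each library in turn gave 2 to 4 members with WT, 3 to 4 with ΔGS and 4 to 5 with ΔADAM, and 79 to 606, 269 to 777 and 198 to 870 genes in all. DESeq2 called the same 4 members with each construct, and 610 genes with WT, where no filter gave 577. DHX58 lost its call with WT under length-scaled TPM and limma, and IFI16 gained one with ΔADAM under limma, the filter of 10 counts and 3 of the fits without 1 library. Limma called 233 and 228 genes with WT, 418 and 423 with ΔGS and 499 and 518 with ΔADAM, at pseudocounts of 1 and 0.1. It raised the share of higher calls from 70.7% to 78.5% and 80.3% with WT and from 60.6% to 75.8% and 76.8% with ΔADAM. At least 10 counts in every library removed TLR3, which had 9 counts in 1 control library. Without the shallow control library of experiment 1 the same 4 members were called with each construct.

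The values that changed sign were log2 fold changes of genes not called in that comparison. MAVS with WT (0.00 in the fit reported) became 0.0020 with size factors of DESeq2 type, 0.0039 with DESeq2, 0.00032 with no filter, 0.016 with 10 counts in every library, 0.049 with length-scaled TPM, 0.108 and 0.113 with limma, 0.059 with experiments 2 and 3 alone, and -0.085 to 0.042 with single libraries left out. With ΔADAM, limma gave 0.024 and 0.026 for MAVS and 0.023 and 0.024 for TMEM173, which ran from -0.127 to 0.0093 with libraries left out. For WT against the mean of the variants, DDX58 was 0.014 with experiments 2 and 3 alone and -0.107 to 0.0097 with libraries left out, TLR3 was 0.024 with limma at a pseudocount of 0.1, and TMEM173 ran from -0.076 to 0.079. For ΔGS against ΔADAM, DHX58 was -0.048 and -0.049 without the replicate block (with and without the batch term), -0.0011 with size factors of DESeq2 type and -0.0019 with DESeq2, and with libraries left out DDX58 ran from -0.122 to 0.103, IFIH1 from -0.174 to 0.049 and DHX58 from -0.113 to 0.140. The cause was not tested.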
